A study of Mus musculus with 10 samples.

Results

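The mutant difference was compared between replicate sets of single mouse embryos: the difference between *Rreb1*-/- and wild-type embryos within replicates 2 to 4 was set against the same difference within replicates 5 and 6. Of 15603 genes tested, 182 were chosen by this contrast (1.17%), because the difference on the log2 scale differed between the sets by at least 1 at an unadjusted p under 0.01 (limma, interaction of genotype and set). At an adjusted p under 0.05 the contrast gave only 7 genes (0.0449%), too few for a description, so the looser limit was used. The 182 genes were selected on the differences described here, which are therefore given as measurements without a test. Over all genes 5.35% had an interaction p under 0.05 (limma), little more than the nominal share. An interaction p under 0.01 was found for 1.59%, where 1% is nominal. Many selected genes could therefore have arisen by chance, and single genes near the limits should be read accordingly.

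At E7.5 the mouse embryo is gastrulating. Epiblast cells move through the primitive streak and become mesoderm and definitive endoderm, and the first blood cells arise in the extraembryonic mesoderm of the yolk sac. Hox genes are then switched on in the order in which they lie in their clusters, heart and paraxial mesoderm begin to form, and genes of the epiblast and early streak such as *Eomes* decline. *Rreb1* encodes a zinc finger transcription factor that can activate or repress its targets.

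There were 10 embryos, 5 wild-type (*Rreb1*+/+) and 5 *Rreb1*-/-, all from intercrosses of *Rreb1*+/- mice labelled CD1 and, in the study's methods, kept on a mixed background. The mutant allele lacks most of the coding sequence of exon 6, deleted with Cas9 and paired guides. The study made lines with unlike deletions. The column headers mark all 5 mutants of both sets as KO1, without saying whether this names a line. Whether the line differs between the sets is therefore not known. Each library came from the polyadenylated RNA of 1 whole embryo without the parietal endoderm, part of which was used for genotyping. Each genotype had 3 embryos in replicates 2 to 4 and 2 in replicates 5 and 6. The labels do not say what the numbers stand for. The sets were drawn from earlier results on these embryos, in which they lay apart, and all embryos are labelled E7.5, without litter, day of collection or line of origin. In whole embryos, fewer cells of a type and less RNA per cell cannot be told apart.

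Values are read counts per gene divided by a size factor for each embryo, called normalized counts. They rest on 31467767 to 35786876 counted reads per embryo, with 2.03% to 3.08% mitochondrial reads in replicates 2 to 4 and 2.22% to 2.75% in replicates 5 and 6. *Xist*, which coats the inactive X chromosome, was at 45657 or more in all wild-type embryos and in mutant replicate 2 and at 61.3 or less in mutant replicates 3 to 6. The latter had 5850 to 9170 summed counts of 4 Y-linked genes, against at most 3.82 in the other 6 embryos. The mutants of replicates 2 to 4 were therefore 1 embryo with *Xist* and 2 with Y-linked reads, while both mutants of replicates 5 and 6 had Y-linked reads, so that within replicates 5 and 6 genotype and sex cannot be told apart. Summed counts of 16 listed markers of maternal decidua and immune cells, without *Alpl*, which embryonic cells also express, were 160 to 248 in replicates 2 to 4 and 313 to 610 in replicates 5 and 6, with overlapping genotypes. Of these markers 3, *Nkg7*, *Tyrobp* and *S100a9*, were at 0 in all mutants of replicates 2 to 4. *Rreb1* itself was 2534, 2741 and 2365 in wild-type and 4657, 5715 and 3988 in mutant replicates 2 to 4, and 2924 and 2656 in wild-type and 5052 and 5638 in mutant replicates 5 and 6. The mutants were above wild-type in both sets by a like amount (log2 difference 0.90 ± 0.12 and 0.94 ± 0.15, where values after ± are standard errors throughout), and since the count sums all exons it does not check the deletion.

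Within replicates 2 to 4, 226 genes were lower in mutants (1.45%) and 198 higher (1.27%) by at least 2-fold with an adjusted p below 0.05, and such genes are said to be called. Within replicates 5 and 6 these thresholds gave 19 lower genes (0.122%) and 117 higher ones (0.75%), with a median standard error of 0.186 against 0.152 in replicates 2 to 4. The sets have no embryo in common. Of the 198 genes higher in replicates 2 to 4, 185 also lay above wild-type in replicates 5 and 6 and 75 were called there, with median log2 differences of 1.45 and 1.14. Of the 226 lower genes, 157 lay below wild-type in replicates 5 and 6 and 14 were called, with medians of −1.57 and −0.25. Over all genes tested, 63.5% had the same sign in both sets. The within-set differences correlated across genes with Pearson's r of 0.478 and Spearman's rho of 0.380, given as a description, since genes are not independent of each other.

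The 182 genes were sorted by what was called within each set. Those called in replicates 2 to 4 only were 85 lower and 17 higher genes. Those called in replicates 5 and 6 only were 8 higher and 3 lower. A further 13 were called in at least 1 set and differed by 0.5 or more on the log2 scale in opposite directions, 3 were called in both sets in 1 direction but unequally, and 53 were called in neither set alone. In 145 genes the mutant difference was the higher one in replicates 5 and 6 (0.929% of all genes) and in 37 it was the lower one (0.237%). Mutant replicates 2 to 4 were the group that most often stood apart. They lay below all 7 other embryos for 115 of the 182 genes, which was so for 4.95% of all genes tested, and above them for 22, against 4.2% of all genes. Mutant replicates 5 and 6 lay above all others for 59, against 5.04% of all genes. These positions follow in part from the way the genes were chosen. With Y-linked expression added to the model, 175 genes were selected, 136 of them among the 182. But the genes called in replicates 2 to 4 only fell to 52. Those in replicates 5 and 6 only fell to 0 and those with opposite directions to 2. The slope of this covariate was set almost wholly by mutant replicate 2 against mutant replicates 3 and 4. Without 1 of the 4 embryos of replicates 5 and 6, 141 to 165 genes were selected, 102 to 116 of them among the 182.

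**Figure D1:**
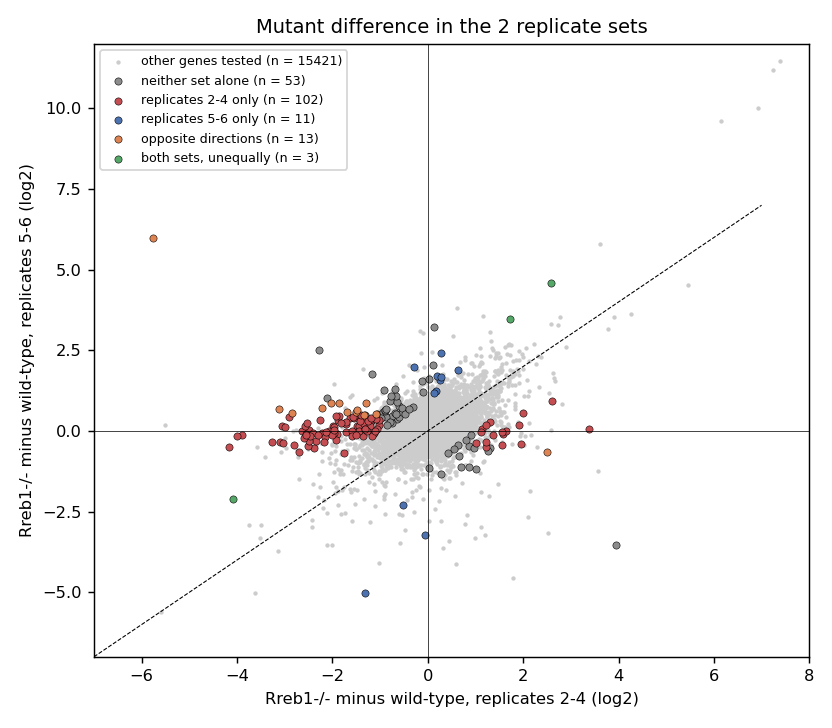
Log2 difference between mutant and wild-type embryos within replicates 2 to 4 (horizontal axis) and within replicates 5 and 6 (vertical axis), 1 point per gene tested, with the 182 selected genes coloured by class and the dashed line marking equal differences. The 85 genes lowered in replicates 2 to 4 only lie to the left near a vertical value of 0, with a median of −1.75 and 0.05 in the respective sets.

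The 85 genes lower in mutants in replicates 2 to 4 only made up the largest class. Their log2 differences ran from −4.17 to −1.01 in replicates 2 to 4 (median −1.75) and from −0.67 to 0.49 in replicates 5 and 6 (median 0.05). For 60 of them the 95% interval in replicates 5 and 6 excluded a 2-fold lower level, and for the other 25 it did not. All 3 mutants of replicates 2 to 4 lay below every other embryo for 82 of the 85, which was so for 4.95% of all genes tested. Mutant replicate 2, the one with *Xist*, lay below wild-type replicates 2 to 4 for all 85. The class was called on these same embryos, so both positions follow in large part from the choice of genes. The wild-type embryos also differed between the sets at these genes: 76 of the 85 were higher in wild-type replicates 5 and 6 than in wild-type replicates 2 to 4, with a median log2 difference of 1.19, where the median over all genes was −0.0008. The mutants of replicates 5 and 6 were above those of replicates 2 to 4 for all 85, with a median of 3.02. The usual order was thus mutants 2 to 4, then wild-type 2 to 4, then both genotypes of replicates 5 and 6 close together.

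Hox genes, which set position along the body axis, formed the gene list with the most selected genes. The lists were chosen with earlier results of these data known. Of 25 listed members, all tested, 11 were among the selected genes, where 1.17% of all genes tested were. In replicates 2 to 4, 17 were called lower, against 1.45% of all genes tested, and in replicates 5 and 6, 0, against 0.122%. Their median log2 difference was −1.69 in replicates 2 to 4 and −0.08 in replicates 5 and 6, where all genes tested had medians of −0.01 and −0.01. Counting every Hox gene of the table tested, a choice made after the values were seen, 30 were tested and 13 selected. All 30 lay below wild-type in replicates 2 to 4, 18 of them as called genes, while 18 lay below and 12 above it in replicates 5 and 6 with no call. The selected ones were 4 of 10 Hoxa genes, 6 of 9 Hoxb, 2 of 4 Hoxc and 1 of 7 Hoxd genes.

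*Hoxb8* (chr11:96281905-96285315, GRCm38) had 69.1, 53.2 and 41.1 in wild-type and 6.36, 7.27 and 3.19 in mutant replicates 2 to 4, and 346 and 257 in wild-type and 285 and 196 in mutant replicates 5 and 6. Mutant replicates 2 to 4 stood far below all other embryos, and in replicates 5 and 6 the genotypes overlapped. Its log2 difference was −3.10 ± 0.32 (SE) in replicates 2 to 4 and −0.33 ± 0.39 in replicates 5 and 6, with a 95% interval of −1.19 to 0.53 in the latter. *Hoxc8* (chr15:102990607-102994111) was at 31.7, 28.1 and 18.1 in wild-type and 0, 0 and 2.12 in mutant replicates 2 to 4, and 144 and 87.6 in wild-type and 88.3 and 72 in mutant replicates 5 and 6. Only 2 reads fell on it in mutant replicates 2 to 4 against 80 in wild-type, a ratio of 36.9 with a counting interval of 9.89 to 310.0. *Hoxa5* (chr6:52201754-52204587) had no read in mutant replicates 2 to 4 and 15.4, 7.03 and 5.73 in wild-type replicates 2 to 4, at least 2.94-fold higher against a floor of 3 reads per library. In replicates 5 and 6 it had 84.5 and 87.6 in wild-type and 79.9 and 57.4 in mutants. With *Hoxa5* at this bound the list's median in replicates 2 to 4 was −1.63.

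*Hoxb1* lies at the 3′ end of its cluster, which is switched on first. It was at 1245, 1164 and 1023 in wild-type and 299, 658 and 337 in mutant replicates 2 to 4, and at 1132 and 1173 and 1138 and 1425 in replicates 5 and 6. Here too the mutants of replicates 2 to 4 were lowest without overlap, by −1.49 ± 0.25 on the log2 scale, against 0.14 ± 0.30 in replicates 5 and 6, while the wild-type embryos of both sets overlapped. *Hoxb2* and *Hoxd13* were selected although neither was called in a set, with differences of −0.88 ± 0.27 and −0.75 ± 0.21 in replicates 2 to 4 and 0.68 ± 0.33 and 0.34 ± 0.26 in replicates 5 and 6. The transcripts *Hotairm1*, *Hoxaas2* and *Hoxaas3* of the Hoxa cluster were also lower in replicates 2 to 4 only, but it is not stated whether counting used strand, so their reads and those of the Hoxa genes they overlap may not have been told apart. Genes of this paragraph were singled out after their values were seen.

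**Figure D2:**
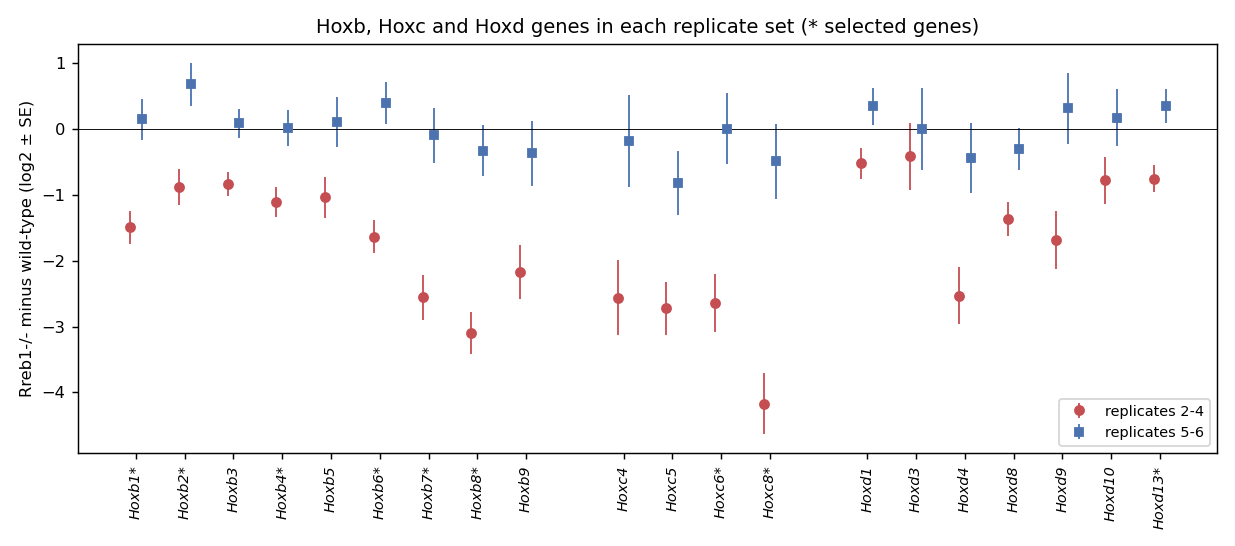
Log2 difference between mutant and wild-type embryos for the 20 Hoxb, Hoxc and Hoxd genes tested, by cluster and paralogue number, within replicates 2 to 4 (circles, 3 and 3 embryos) and replicates 5 and 6 (squares, 2 and 2), with bars of 1 standard error and an asterisk on the 9 selected ones. All circles lie below 0 with a median of −1.56, while the squares scatter around 0 with a median of 0.008.

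*Cdx1*, a caudal-type homeobox regulator of Hox genes, had 601, 243 and 203 in wild-type and 59.3, 99.8 and 54.2 in mutant replicates 2 to 4, and 2633 and 3100.2 in wild-type and 2498 and 2537 in mutant replicates 5 and 6. Again mutant replicates 2 to 4 were lowest and the genotypes of replicates 5 and 6 lay close together, at differences of −2.16 ± 0.36 and −0.18 ± 0.44. *Aldh1a2* (chr9:71215789-71296243) encodes the enzyme that makes retinoic acid in the early mesoderm. Its counts were 1532, 1056 and 380.0 in wild-type and 48.7, 96.6 and 38.2 in mutant replicates 2 to 4, and 4281 and 5442 in wild-type and 4624 and 4322 in mutant replicates 5 and 6. No mutant of replicates 2 to 4 reached 100, while both mutants of replicates 5 and 6 were at wild-type level, with a difference of −3.89 ± 0.46 in the first set and a 95% interval of −1.37 to 1.15 in the second. *Tcf15*, a basic helix-loop-helix factor of the paraxial mesoderm, had 52.8, 76.3 and 51.6 in wild-type and 11.7, 12.5 and 9.56 in mutant replicates 2 to 4, and 81.6 and 94.2 and 74.3 and 85.5 in replicates 5 and 6. These were the 2 selected genes of 15 paraxial mesoderm genes tested. Of the 15, 5 were called lower and 1 higher in replicates 2 to 4, and 0 were called in replicates 5 and 6 (list medians −1.01 and −0.11). The shares over all genes tested were 1.45% lower and 1.27% higher in replicates 2 to 4, and 0.122% and 0.75% in replicates 5 and 6.

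Among 16 cardiac mesoderm genes tested, 6 were selected. In replicates 2 to 4, 6 genes of the list were called lower and 1 higher, and in replicates 5 and 6 none was called. Of all genes tested 1.17% were selected. In replicates 2 to 4, 1.45% of them were called lower and 1.27% higher, and in replicates 5 and 6, 0.122% and 0.75%. At these shares, the absence of a call among 16 genes in replicates 5 and 6 says little by itself. The list's medians were −0.78 and 0.27. *Tbx5*, a transcription factor of the heart field, had 25.9, 27.1 and 13.4 in wild-type and 3.18, 7.27 and 5.31 in mutant replicates 2 to 4, and 90.3 and 77.2 in wild-type and 116 and 96 in mutant replicates 5 and 6. *Myh7*, a heavy chain of cardiac myosin, was at 53.7, 53.2 and 59.2 in wild-type and 13.8, 20.8 and 8.5 in mutant replicates 2 to 4, and 188 and 172 in wild-type and 203 and 191 in mutant replicates 5 and 6. *Tnnt2*, the cardiac troponin T gene, was at 161, 119 and 79.2 in wild-type and 41.3, 43.6 and 31.9 in mutant replicates 2 to 4, and 562 and 417 in wild-type and 632 and 656 in mutant replicates 5 and 6. For all 3 genes the mutants of replicates 2 to 4 were the lowest embryos without overlap, and the mutants of replicates 5 and 6 were at or above their wild-type counterparts. The differences were −1.88 ± 0.35, −1.96 ± 0.28 and −1.55 ± 0.25 in replicates 2 to 4, against 0.33 ± 0.43, 0.13 ± 0.34 and 0.41 ± 0.31 in replicates 5 and 6. *Tnni1*, another troponin subunit, and *Smarcd3*, a chromatin remodelling subunit of the heart, were selected in the same direction, and *Sfrp5*, a secreted WNT antagonist, in the other.

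*Acta2*, smooth muscle actin (chr19:34241090-34255590), was among the 7 genes that passed the adjusted p. It had 551, 408 and 383 in wild-type and 71, 56.1 and 36.1 in mutant replicates 2 to 4, and 1955 and 1454 in wild-type and 2150.4 and 1650.2 in mutant replicates 5 and 6. In replicates 2 to 4 the mutants stood far below wild-type without overlap, and in replicates 5 and 6 the genotypes overlapped, with differences of −3.05 ± 0.25 and 0.16 ± 0.30. *Tcf21*, a factor of mesenchymal progenitors (chr10:22817281-22820174), was at 49.9, 58.2 and 58.2 in wild-type and 8.48, 7.27 and 10.6 in mutant replicates 2 to 4, and 78.7 and 96.1 in wild-type and 99.4 and 108 in mutant replicates 5 and 6. Its counts in mutant replicates 2 to 4 were the lowest of all embryos, while both mutants of replicates 5 and 6 were above both wild-type embryos. *Cited4*, a transcriptional co-activator (chr4:120666572-120667820), had 115, 138 and 138 in wild-type and 17, 16.6 and 11.7 in mutant replicates 2 to 4, and 246 and 288 in wild-type and 172 and 245 in mutant replicates 5 and 6, with the lowest 3 values again in mutant replicates 2 to 4. *Alpk2*, a kinase gene, had 1 read in mutant replicates 2 to 4 against 28 in wild-type (ratio 25.8, counting interval 4.27 to 1060.0), and 73.9 and 69.7 in wild-type and 125 and 76.1 in mutant replicates 5 and 6. *Tcf21*, *Cited4*, *Itga2b* and *Gpc4* are named here because they passed the adjusted p, which was seen first.

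Of 17 primitive erythroid genes tested, 16 lay below wild-type in replicates 2 to 4 and 15 in replicates 5 and 6. Among them 6 were selected, 5 with the higher and 1 with the lower mutant difference in replicates 5 and 6. In replicates 2 to 4, 7 were called lower, against 1.45% of all genes tested. In replicates 5 and 6, 2 were called lower, against 0.122%, and none was called higher in either set. The medians were −1.27 and −0.30, and −1.05 in replicates 2 to 4 without *Hba-x*, which had 6 reads in wild-type and 0 in mutants there. *Klf1*, the erythroid Krüppel-like factor that drives globin genes (chr8:84901928-84905291), had 52.8, 36.1 and 30.6 in wild-type and 8.48, 6.23 and 4.25 in mutant replicates 2 to 4, and 160.4 and 189 in wild-type and 125 and 159.6 in mutant replicates 5 and 6. *Gfi1b*, a repressor needed for red cells and platelets, had 116, 205 and 171 in wild-type and 33.9, 35.3 and 34 in mutant replicates 2 to 4, and 193 and 175 in wild-type and 123 and 170.0 in mutant replicates 5 and 6. Both were lowest in mutant replicates 2 to 4 without overlap (−2.48 ± 0.29 and −2.18 ± 0.23) and differed by −0.30 ± 0.36 and −0.35 ± 0.28 in replicates 5 and 6. *Epor*, the erythropoietin receptor, and *Nfe2*, an erythroid factor, were lower in replicates 2 to 4 only as well. *Itga2b*, an integrin of early blood progenitors and platelets (chr11:102453297-102470122), had 221, 250.0 and 190.0 in wild-type and 55.1, 58.2 and 60.5 in mutant replicates 2 to 4, and 641 and 543 in wild-type and 539.9 and 576 in mutant replicates 5 and 6, with a difference of −1.90 ± 0.14 in replicates 2 to 4 and a 95% interval of −0.47 to 0.31 in replicates 5 and 6.

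The embryonic globins *Hbb-bh1* and *Hba-x* were called lower in the mutants of replicates 5 and 6, where *Klf1* was not called. For the embryonic globin *Hbb-y* the genotypes overlapped there, at 37.5 and 13.2 in wild-type and 26.02 and 9.39 in mutants. *Hbb-bh1*, the beta-like globin of primitive red cells (chr7:103841637-103843164), had 817, 672 and 413 in wild-type and 47.7, 26 and 35 in mutant replicates 2 to 4, and 9927 and 6396 in wild-type and 2004 and 1730.5 in mutant replicates 5 and 6. Mutants were below wild-type without overlap in both sets, and both genotypes were higher in replicates 5 and 6. The difference was called in both sets and was the larger one in replicates 2 to 4, at −4.08 ± 0.28 against −2.10 ± 0.35. *Hba-x*, the zeta globin (chr11:32276400-32278116), was at 0, 3.01 and 2.86 in wild-type and 0, 0 and 0 in mutant replicates 2 to 4, and 1146 and 584 in wild-type and 31.6 and 18.8 in mutant replicates 5 and 6. It was practically absent from all embryos of replicates 2 to 4, with 6 reads in wild-type and 0 in mutants, so no fold is given for that set and its place among genes changed in replicates 5 and 6 only rests on that floor. In replicates 5 and 6 the mutants were lower by −5.01 ± 0.68. The adult globin *Hbb-bs*, listed as a marker of maternal blood, was at 0 to 25.98 in replicates 2 to 4 and at 47.1 to 133 in replicates 5 and 6, with 133 and 47.1 in wild-type and 83.6 and 116 in mutants. Its part in the globin values was not tested.

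The selected erythroid genes *Hba-x*, *Klf1* and *Gfi1b* are shown with the 250 bases before their start in RefSeq (GRCm38.p6), 5′ to 3′ on the strand of the gene, because they are bound by GATA factors in red cells and the letters of that motif can be looked up in them. Capitals mark GATA with A or T before it and A or G after it, on either strand. *Hba-x* lies at chr11:32276350-32276599 on the plus strand, *Klf1* at chr8:84901732-84901981 on the plus strand and *Gfi1b* at chr2:28621983-28622232 on the minus strand.
Hba-x: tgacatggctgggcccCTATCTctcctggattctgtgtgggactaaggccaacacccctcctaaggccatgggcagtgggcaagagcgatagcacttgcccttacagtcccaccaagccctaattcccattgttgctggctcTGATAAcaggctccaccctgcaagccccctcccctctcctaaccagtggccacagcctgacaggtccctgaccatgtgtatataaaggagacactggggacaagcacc
Klf1: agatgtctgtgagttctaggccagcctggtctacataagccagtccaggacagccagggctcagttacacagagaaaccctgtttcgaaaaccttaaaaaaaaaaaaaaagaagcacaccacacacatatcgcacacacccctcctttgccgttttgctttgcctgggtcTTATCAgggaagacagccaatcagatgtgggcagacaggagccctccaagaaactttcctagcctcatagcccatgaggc
Gfi1b: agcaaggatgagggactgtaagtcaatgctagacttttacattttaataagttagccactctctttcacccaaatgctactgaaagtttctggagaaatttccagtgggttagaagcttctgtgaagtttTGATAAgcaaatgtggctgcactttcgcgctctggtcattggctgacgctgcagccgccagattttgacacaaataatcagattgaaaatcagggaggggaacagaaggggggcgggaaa
The windows held 2 matches in *Hba-x* and 1 each in *Klf1* and *Gfi1b*. Such a match was present in 27.1% of 27025 promoter windows of this length and in 36 of the 116 selected genes that had one (31.0%). A match is a description of the letters and not a bound site.

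Single neural and axial genes were also lowered in replicates 2 to 4. Of the genes tested there, 9 of 18 neurectoderm genes and 6 of 14 node and axial mesoderm genes lay below wild-type. *Hes3*, a Notch-type repressor of neural progenitors, had 1 read in mutant replicates 2 to 4 and 75 in wild-type (ratio 69.2, counting interval 12 to 2770.0), while in replicates 5 and 6 it stood at 96 and 118 in wild-type and 128 and 69.9 in mutants. *Sox1*, an early marker of the neural plate, had 48.9, 56.2 and 32.5 in wild-type and 3.18, 6.23 and 10.6 in mutant replicates 2 to 4, and 188 and 197 in wild-type and 162 and 91.8 in mutant replicates 5 and 6. Its mutants were lowest in replicates 2 to 4, and in replicates 5 and 6 they were also below wild-type, by a difference of −0.66 ± 0.47 that was not called. *Gbx2*, a regulator of the hindbrain, was the other selected gene of 18 neurectoderm genes tested. Of the 18, 3 were called lower and 1 higher in replicates 2 to 4, where 1.45% and 1.27% of all genes tested were. In replicates 5 and 6, 0 were called lower and 1 higher, against 0.122% and 0.75%. The medians of the 18 were −0.17 and −0.03 in the respective sets. *Shh*, the morphogen of the node and notochord, had 106, 65.3 and 55.4 in wild-type and 6.36, 3.12 and 35 in mutant replicates 2 to 4, and 179 and 179 in wild-type and 197 and 354 in mutant replicates 5 and 6. Mutant replicate 4 lay well above the other mutants of its set, and mutant replicate 6 was the highest embryo. *Shh* was the 1 selected gene of 14 node and axial mesoderm genes, and the only one called in replicates 2 to 4 (list medians 0.07 and 0.38).

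Of 19 genes for plasma proteins of the visceral endoderm (VE), 2 were selected, and of 20 VE lineage and uptake genes 0, where 1.17% of all genes tested were selected. *Afp*, alpha-fetoprotein, had 10885, 10611 and 15296 in wild-type and 4758, 3425 and 2831 in mutant replicates 2 to 4, and 11825 and 12399.7 in wild-type and 7237 and 7989 in mutant replicates 5 and 6. The mutants were below wild-type in both sets without overlap, by −1.75 ± 0.19 in replicates 2 to 4 and −0.67 ± 0.23 in replicates 5 and 6, so that *Afp* counts as changed in 1 set only through the 2-fold limit and the error of 2 embryos. *Vtn*, vitronectin, had 70.0, 63.2 and 57.3 in wild-type and 24.4, 21.8 and 29.7 in mutant replicates 2 to 4, against 68.2 and 106 and 81.8 and 103 in replicates 5 and 6. *Afp* and *Vtn* were named after their values were seen.

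**Figure D3:**
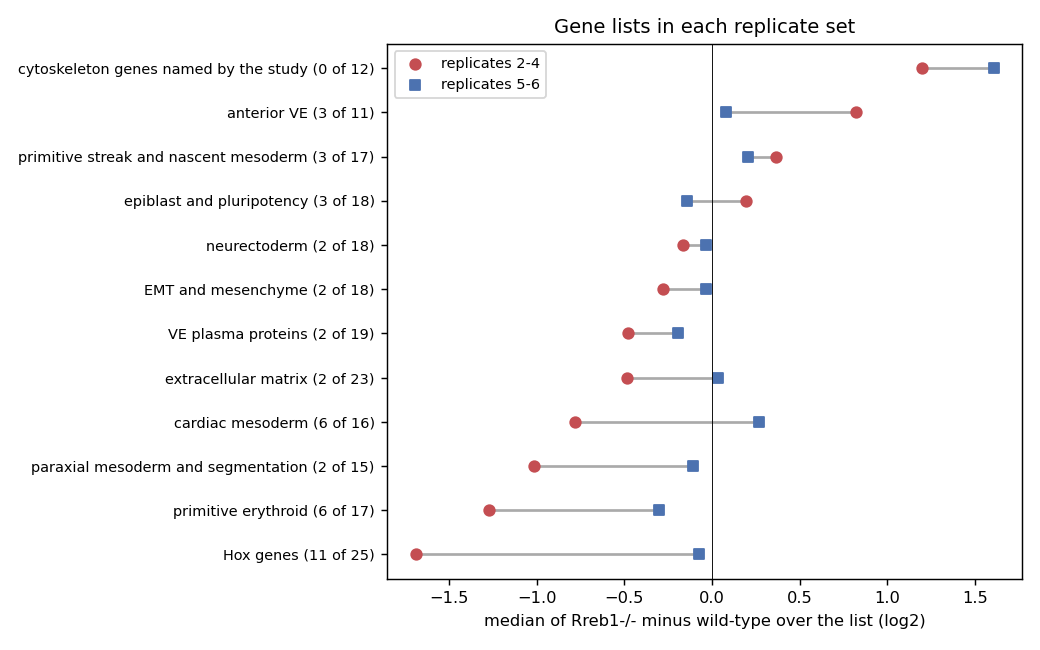
Median log2 difference between mutant and wild-type embryos over the tested genes of each list, in replicates 2 to 4 (circles) and replicates 5 and 6 (squares), for lists with at least 2 selected genes and for the cytoskeleton genes that the study names; the number of selected genes of those tested stands beside each list. The Hox, erythroid, paraxial and cardiac lists lie furthest below 0 in replicates 2 to 4, while the cytoskeleton list lies at 1.20 and 1.61.

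The 17 genes higher in mutants in replicates 2 to 4 only included regulators of the epiblast and the early primitive streak. Their log2 differences ran from 1.02 to 3.38 in replicates 2 to 4 (median 1.55) and from −0.49 to 0.93 in replicates 5 and 6 (median −0.03). For 14 of them the 95% interval in replicates 5 and 6 excluded a 2-fold higher level. The 3 mutants of replicates 2 to 4 lay above all other embryos for 15 of the 17, against 4.2% of all genes tested, which follows in large part from the choice of genes. *Eomes*, a T-box factor of the streak and the early endoderm (chr9:118478212-118486132), had the smallest error relative to its contrast between the sets after the *Gm9855* pseudogene. Its counts were 1560.0, 1623 and 1928 in wild-type and 5858, 4821 and 4549 in mutant replicates 2 to 4, and 720.2 and 758 in wild-type and 747 and 642 in mutant replicates 5 and 6. In replicates 2 to 4 the mutants were above wild-type with no overlap, and in replicates 5 and 6 the genotypes overlapped at a lower level than in any embryo of the other set. The differences were 1.57 ± 0.12 and −0.09 ± 0.15, with a 95% interval of −0.42 to 0.24 in replicates 5 and 6.

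*Tdgf1*, the Nodal co-receptor Cripto (chr9:110939603-110946158), showed the largest rise of this class. It had 129.5, 271 and 376 in wild-type and 3333, 1955 and 2316 in mutant replicates 2 to 4, and 14.4 and 8.48 in wild-type and 13 and 10.4 in mutant replicates 5 and 6. The mutants of replicates 2 to 4 stood far above their wild-type counterparts (3.38 ± 0.37), and in replicates 5 and 6 all 4 embryos were below 15, so that a difference there could hardly be measured (0.07 ± 0.45). *Fgf5*, a growth factor of the primed epiblast (chr5:98254184-98277030), was at 142, 165 and 281 in wild-type and 845, 503 and 900.5 in mutant replicates 2 to 4, and 93.2 and 88.5 in wild-type and 88.3 and 52.2 in mutant replicates 5 and 6. *Fgf4*, a growth factor of the epiblast and streak, was at 174, 136 and 73.5 in wild-type and 413, 342 and 380.2 in mutant replicates 2 to 4, and 110.4 and 118 in wild-type and 95.7 and 136 in mutant replicates 5 and 6. Both were highest in mutant replicates 2 to 4, with no overlap with any other embryo. *Tdgf1*, *Fgf5* and *Fgf4* were the 3 selected genes of 18 epiblast and pluripotency genes tested. The same 3 were the genes of the list called in replicates 2 to 4, and the list's medians were 0.19 and −0.14.

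*Lhx1*, a LIM homeobox factor of the streak and the anterior VE (chr11:84518284-84525535), had 320.4, 458 and 612 in wild-type and 2029, 1467 and 1631 in mutant replicates 2 to 4, and 424 and 382 in wild-type and 377 and 548 in mutant replicates 5 and 6. Its mutants were highest in replicates 2 to 4 (1.92 ± 0.23), and the wild-type embryos of both sets overlapped. *Sfrp5* was at 23, 16.1 and 32.5 in wild-type and 150.5, 127 and 159 in mutant replicates 2 to 4, and 308 and 303 in wild-type and 518 and 660.3 in mutant replicates 5 and 6. Here the mutants lay above wild-type in both sets, by 2.61 ± 0.24 and 0.93 ± 0.29, and only the first was called. *Cer1*, a secreted antagonist of Nodal and BMP, was at 1311, 1457 and 1821 in wild-type and 3146, 2687 and 2714 in mutant replicates 2 to 4, and 432 and 447 in wild-type and 378 and 429.8 in mutant replicates 5 and 6. Its difference of 0.91 ± 0.13 in replicates 2 to 4 fell short of 2-fold and it turned to −0.12 ± 0.16 in replicates 5 and 6. These were the 3 selected genes of 11 anterior VE genes, all 11 of which lay above wild-type in replicates 2 to 4 (median 0.82, 3 called), against 6 of 11 in replicates 5 and 6 (median 0.08, 0 called). Of 17 streak and nascent mesoderm genes, *Lhx1* and *Eomes* were selected as higher and *Cdx1* as lower in mutant replicates 2 to 4 (medians 0.37 and 0.20).

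*Gpc4*, a glypican on the X chromosome (chrX:52053021-52165252), had 523, 627 and 619.7 in wild-type and 1299, 1104 and 1177 in mutant replicates 2 to 4, and 472 and 447 in wild-type and 375 and 337 in mutant replicates 5 and 6. Mutant replicate 2, which has *Xist*, stood with the other mutants of its set, which have Y-linked reads, above all wild-type embryos. *Gpc4* was selected on these same values. *Klhl6*, a Kelch-like adaptor, had 152, 215 and 263 in wild-type and 521, 472 and 450.2 in mutant replicates 2 to 4, and 256 and 254 in wild-type and 197 and 167 in mutant replicates 5 and 6, highest in mutant replicates 2 to 4 and lowest in mutant replicates 5 and 6 apart from wild-type replicate 2. *Cdhr1*, a cadherin-related gene, had 24.9, 26.1 and 25.8 in wild-type and 75.2, 67.5 and 89.2 in mutant replicates 2 to 4, and 25 and 15.1 and 21.4 and 9.39 in replicates 5 and 6. *Pmaip1*, the p53 target Noxa, was higher in replicates 2 to 4 only (1.36 ± 0.17 and −0.12 ± 0.21) and was the 1 selected gene of 20 p53 targets.

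**Figure D4:**
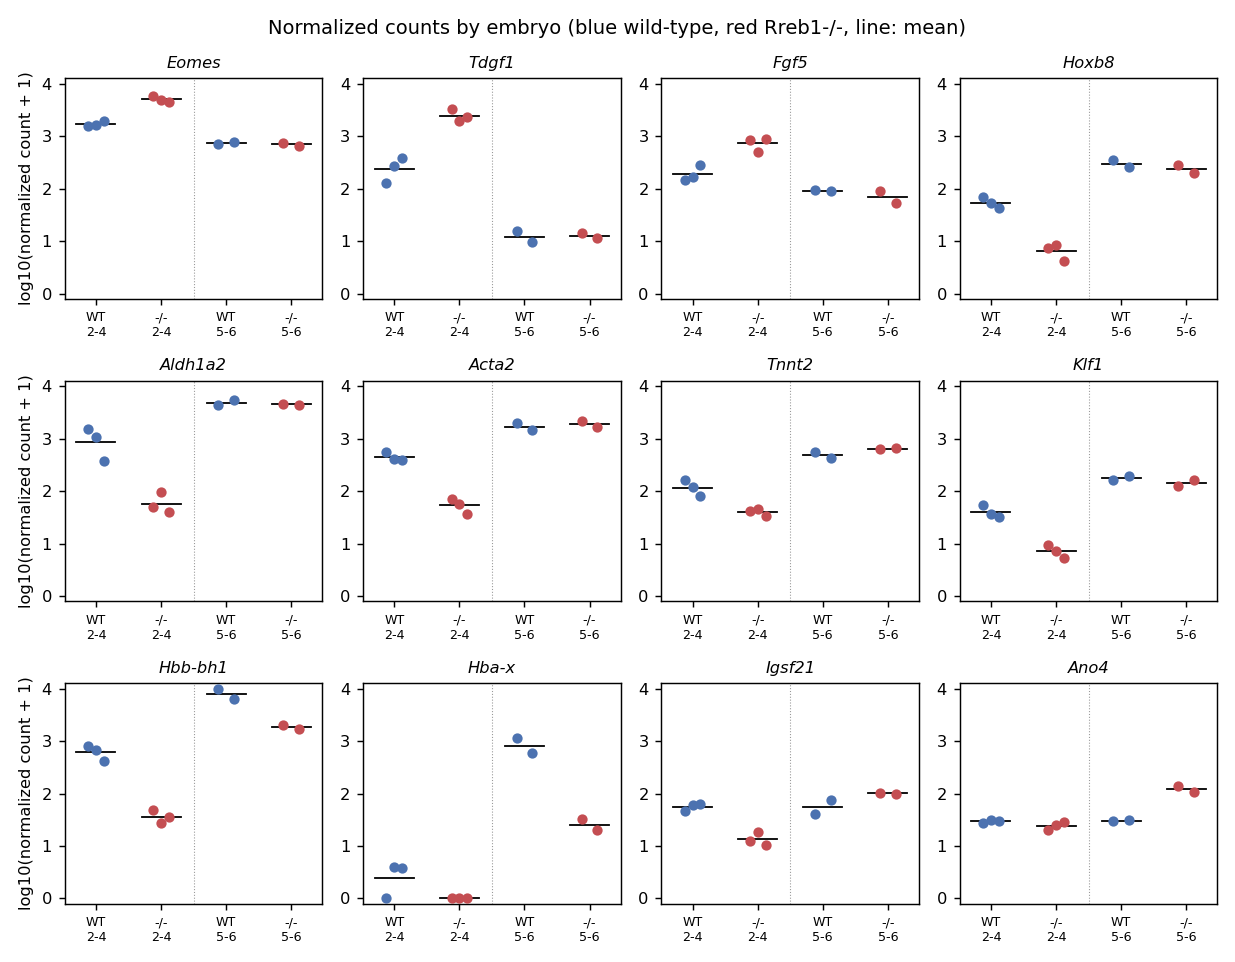
Normalized counts plus 1 on a log10 scale for 12 selected genes, 1 point per embryo, wild-type in blue and mutants in red, with a line at the mean of the log values of each group. The mutants of replicates 2 to 4 lie apart for all panels but those of Hba-x and Ano4, where the mutants of replicates 5 and 6 lie apart from their wild-type counterparts.

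Of the 13 genes with opposite directions, 12 were lower in the mutants of replicates 2 to 4 and higher in those of replicates 5 and 6. Past both thresholds in both sets there was 1, *Gm9855*. The median difference over the 12, *Gm9855* included, was 0.67 in replicates 5 and 6 and −1.77 in replicates 2 to 4. *Igsf21*, an immunoglobulin superfamily gene (chr4:140026846-140246784), had 45.1, 58.2 and 62.1 in wild-type and 11.7, 17.7 and 9.56 in mutant replicates 2 to 4, and 40.3 and 73.5 in wild-type and 103 and 99.1 in mutant replicates 5 and 6. Mutants were below both wild-type groups in replicates 2 to 4 and above them in replicates 5 and 6, at −2.04 ± 0.30 and 0.88 ± 0.37, and the wild-type groups overlapped. *Hlx*, a homeobox factor of mesenchyme (chr1:184727140-184732619), was at 46.1, 87.3 and 77.3 in wild-type and 15.9, 31.2 and 11.7 in mutant replicates 2 to 4, and 88.3 and 92.3 in wild-type and 152 and 184 in mutant replicates 5 and 6. It followed the same order, at −1.85 ± 0.35 and 0.88 ± 0.43. *Upk3b*, a mesothelial membrane protein, was at 20.1, 16.1 and 26.7 in wild-type and 10.6, 5.2 and 5.31 in mutant replicates 2 to 4, and 47.1 and 32 in wild-type and 66.9 and 57.4 in mutant replicates 5 and 6. *Bcan*, a proteoglycan, was at 96.9, 44.2 and 29.6 in wild-type and 1.06, 8.31 and 9.56 in mutant replicates 2 to 4, and 11.5 and 14.1 in wild-type and 16.7 and 26.1 in mutant replicates 5 and 6, and here the wild-type embryos of replicates 2 to 4 were above all the rest. The 95% intervals in replicates 5 and 6 were 0.06 to 1.70 for *Igsf21*, −0.07 to 1.84 for *Hlx*, −0.26 to 1.58 for *Upk3b* and −1.04 to 2.38 for *Bcan*. Only that of *Igsf21* excluded 0, and *Igsf21* was not called in replicates 5 and 6 (adjusted p 0.426, limma). The intervals are unadjusted and the genes were chosen on these values, so a reversal was not established for any of them. *Snai2*, a regulator of epithelial to mesenchymal transition named after its values were seen, had 190.0, 211 and 137 in wild-type and 69.9, 74.8 and 62.7 in mutant replicates 2 to 4, and 404 and 336 in wild-type and 565 and 483 in mutant replicates 5 and 6, at −1.34 ± 0.18 and 0.50 ± 0.22.

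*Rtp4*, an interferon-induced chaperone of receptors, was the 1 gene of the opposite kind, with 7.68, 3.01 and 6.68 in wild-type and 51.9, 41.6 and 20.2 in mutant replicates 2 to 4, and 6.72 and 4.71 in wild-type and 1.86 and 5.22 in mutant replicates 5 and 6. The mutants of replicates 2 to 4 were highest, while all embryos of replicates 5 and 6 were under 10. Of 14 interferon response genes tested, *Oas1a* was selected, at 1.56 ± 0.30 in replicates 2 to 4 and −0.04 ± 0.37 in replicates 5 and 6. *Rtp4* and *Oas1a* were named after their values were seen.

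*Gm9855* (chr10:42054113-42055306, a single exon on the minus strand) gave by far the largest contrast and is a processed pseudogene of *Tdg*, the thymine DNA glycosylase gene (chr10:82629828-82650799). It had 407, 432 and 881 in wild-type and 10.6, 6.23 and 10.6 in mutant replicates 2 to 4, and 8.64 and 8.48 in wild-type and 887 and 417 in mutant replicates 5 and 6. The embryos fell at separate levels: 5 of them at 6.23 to 10.6, wild-type replicates 2 and 3 and mutant replicate 6 at 407 to 432, and wild-type replicate 4 and mutant replicate 5 at 881 and 887. *Tdg* had 1735, 1818 and 822 in wild-type and 2807, 2703 and 2828 in mutant replicates 2 to 4, and 2809.9 and 2474 in wild-type and 846 and 1605 in mutant replicates 5 and 6 and ran the other way, from 2474 to 2828 where *Gm9855* was near 10, to 1605 to 1818 at the middle level and 822 and 846 at the highest. Of 1145 stretches of 50 bases in *Gm9855*, the length of a read, 876 (76.5%) also occur in a *Tdg* transcript, and the 1194 bases of *Gm9855* differ from *Tdg* at 9 positions. The stretch below, with the most differences in 60 bases of 1 coding exon, is shown because reads can only be told apart where such differences fall. Capitals mark the bases that differ, in GRCm38 at chr10:42054196-42054255 (minus strand) and chr10:82648578-82648637 (plus strand).
Gm9855: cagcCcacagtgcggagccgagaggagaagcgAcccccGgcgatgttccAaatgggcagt
Tdg: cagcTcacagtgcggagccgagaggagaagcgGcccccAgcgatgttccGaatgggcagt
The values of both genes are therefore uncertain. Their sum ran from 1703 to 2838 over the embryos, a range of 1.67 times, where *Gm9855* alone ranged over 142 times. The levels did not follow genotype or set in full, since middle and highest levels occurred in wild-type replicates 2 to 4 and in mutant replicates 5 and 6. The cause of these levels was not tested.

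**Figure D5:**
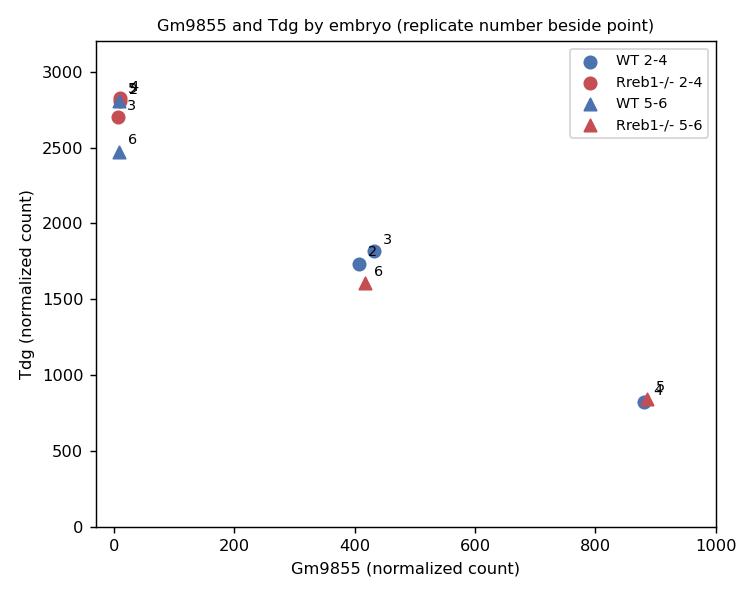
Normalized counts of Tdg against those of Gm9855, 1 point per embryo with its replicate number, wild-type in blue and mutants in red, circles for replicates 2 to 4 and triangles for replicates 5 and 6. The embryos lie in 3 places along Gm9855, near 10, at 407 to 432 and at 881 to 887, and Tdg falls from one to the next.

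Genes changed in replicates 5 and 6 only were few. The 8 higher ones had log2 differences of 1.17 to 2.42 in replicates 5 and 6 and of −0.30 to 0.63 in replicates 2 to 4. Both mutants of replicates 5 and 6 lay above all other embryos for all 8, which was so for 5.04% of all genes tested. For 6 of the 8 the wild-type embryos of that set also lay below all others. The genes were called on these same embryos, so both positions follow in large part from the choice. *Ano4*, a member of the anoctamin family of membrane proteins (chr10:88948994-89344762), differed by the mutants alone. It had 26.9, 30.1 and 29.6 in wild-type and 19.1, 23.9 and 27.6 in mutant replicates 2 to 4, and 28.8 and 30.1 in wild-type and 137 and 106 in mutant replicates 5 and 6, and 8 of 10 embryos lay within a narrow range with the mutants of replicates 5 and 6 far above. The difference there was 2.00 ± 0.28, with a 95% interval of −0.80 to 0.21 in replicates 2 to 4. *Arid3c*, an ARID-domain DNA-binding factor, had 225, 215 and 306 in wild-type and 224, 331 and 299 in mutant replicates 2 to 4, and 114 and 118 in wild-type and 363 and 406 in mutant replicates 5 and 6. *Efcab1*, an EF-hand calcium-binding protein, had 78.7, 77.3 and 79.2 in wild-type and 91.1, 84.2 and 115 in mutant replicates 2 to 4, and 37.5 and 47.1 in wild-type and 125 and 151 in mutant replicates 5 and 6. In both, the wild-type embryos of replicates 5 and 6 were the lowest. Between the sets wild-type differed by −1.07 for *Arid3c* and −0.88 for *Efcab1* on the log2 scale, and the mutants by 0.45 and 0.52. *Celf3*, an RNA-binding protein, and *Pbx4*, a TALE homeobox factor, behaved likewise, at 1.59 ± 0.27 and 1.90 ± 0.28 in replicates 5 and 6 and 0.26 ± 0.22 and 0.63 ± 0.23 in replicates 2 to 4.

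The 3 lower genes of replicates 5 and 6 included *Hba-x* and *AI506816*. *AI506816* (chr5:23698296-23712667), named after its values were seen, had 2986, 1757 and 1632 in wild-type and 2292, 1257 and 2614 in mutant replicates 2 to 4, and 1779 and 2956 in wild-type and 266 and 227 in mutant replicates 5 and 6. Both mutants of replicates 5 and 6 were below every other embryo, and the other 8 ranged from 1257 to 2986 without regard to genotype.

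In 3 genes the mutants differed from wild-type in both sets and in the same direction, but unequally. Besides *Hbb-bh1* these were raised genes. *Stmn4*, a microtubule-destabilizing stathmin (chr14:66344296-66361680), had 2.88, 6.02 and 8.59 in wild-type and 31.8, 33.3 and 48.8 in mutant replicates 2 to 4, and 3.84 and 4.71 in wild-type and 117 and 135 in mutant replicates 5 and 6. *Nr1h4*, the bile acid receptor FXR (chr10:89454234-89533585), had 12.5, 16.1 and 12.4 in wild-type and 45.6, 56.1 and 41.4 in mutant replicates 2 to 4, and 4.8 and 5.65 in wild-type and 68.8 and 67.8 in mutant replicates 5 and 6. Mutants were above wild-type without overlap in both sets and highest in replicates 5 and 6, by 2.58 ± 0.36 and 4.59 ± 0.44 for *Stmn4* and by 1.73 ± 0.25 and 3.48 ± 0.30 for *Nr1h4*.

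The 53 genes called in neither set alone had differences of opposite tendency in replicates 2 to 4 and in replicates 5 and 6. Their medians were −0.74 and 0.67 for the 37 with the higher difference in replicates 5 and 6. For the other 16 they were 0.84 and −0.66. Some uncalled differences were large, down to −2.28 and up to 3.21 among the 37, and up to 3.96 and down to −3.54 among the 16. At the limits of the selection, *Elf5*, a trophoblast factor, was just inside the limit on p with a contrast of −1.06 ± 0.34 and *Hal* just outside with 1.76 ± 0.56. *Lama4*, a laminin chain, was just inside the limit on size at 1.01 ± 0.27, and *Mid1ip1* just outside it with a value slightly below 1.

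Several groups held no selected gene. These were hemangioblast and endothelium, complement and coagulation, parietal endoderm, maternal decidua and immune cells, germ cells, Nodal, BMP and TGF-beta feedback, MHC class I, hypoxia and glycolysis, the integrated and unfolded protein response, immediate early and heat shock genes, cholesterol synthesis, proliferation, mitochondrially encoded genes, adherens and tight junctions, and the Y-linked and X inactivation lists. Since only 1.17% of all genes tested were selected and the lists are short, this says little about these groups. Of the maternal list only 6 genes were tested. In the hemangioblast and endothelium list 3 of 19 genes were called lower in replicates 2 to 4 and 0 in replicates 5 and 6 (medians −0.50 and −0.11). The shares of lower calls over all genes tested were 1.45% and 0.122%. Of the 12 cytoskeleton genes that the study names from these embryos, 0 were selected and 11 were called higher in mutants in each set. Their medians were 1.20 in replicates 2 to 4 and 1.61 in replicates 5 and 6. This list was chosen by the study on these samples and its direction is not independent evidence. Of 12 vascular genes named by the study, 6 were called lower and 3 higher in replicates 2 to 4 and 1 each in replicates 5 and 6. In each set 8 of the 12 lay below wild-type, with medians of −1.35 in replicates 2 to 4 and −0.88 in replicates 5 and 6. Only *Afp* of this list was selected. Among the lists with 1 selected gene, *Postn* of the extraembryonic mesoderm, *Dll4* of the Notch pathway and *Rnf43* of the WNT targets were lower, and *Etv1* of the ERK targets was above wild-type, in replicates 2 to 4.

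Protein-coding genes made up 93.4% of the 182, against 89.4% of all genes tested, and 4 were processed pseudogenes. On the X chromosome lay 5 of them (2.75%, against 3.76% of all genes), on the Y chromosome 0 and on chromosome 13, which carries *Rreb1*, 0 (against 3.6% of all genes). Within 100 kb of another selected gene lay 24, of which 15 were Hox genes or transcripts of Hox clusters. The selected genes were expressed at a lower level than most, with a median mean normalized count of 96.7 against 636 over all genes tested, and 8 of them had 3 reads or fewer in 1 genotype of a set.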

How the data were processed

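RNA-sequencing of 10 single E7.5 embryos was re-examined. Per the methods and the labels, the authors aligned paired reads with STAR in 2 passes, added read groups with Picard, counted reads per gene with HTSeq and divided them by DESeq size factors. The deposited signal is therefore a normalized count on a linear scale. The genome build, gene models and use of strand in counting were not given in the sources used here. Every value was a whole multiple, within 0.1 read, of the worth of 1 read in its embryo, and so the reads (31467767 to 35786876 per embryo) were recovered. Columns were matched to samples by title. Of 20974 genes, 24 had symbols turned into dates by a spreadsheet and were followed by identifier, and 20884 had a position in GENCODE M21 (GRCm38).

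The 15603 genes whose mean reached 15 in either genotype were compared on log2(normalized count + 1), which understates changes of low genes, with limma 3.58.1 in R 4.3.3 (variance trend, 1 mean for each genotype in each set) and Benjamini-Hochberg adjustment. The interaction was the mutant difference in replicates 5 and 6 minus that in replicates 2 to 4. A result with fewer than 20 genes at the adjusted p called for the looser limit. Members and gene lists were chosen with earlier results of these data known. In each class and direction the 5 largest contrasts were named, among annotated genes with a group mean of at least 50 and genotypes that did not overlap in a changed set, with up to 3 genes of each list that held at least 3. Other choices are stated where they occur, and results for some named genes are not reported here. Intervals are 95%. Counting intervals and the floor of 3 reads cover counting error only. Embryos of a group are separate animals. The procedure was tested on simulated data. As alternatives the recovered reads were fitted with edgeR 4.0.16 and DESeq2 1.42.0, and normalization, pseudocount, filter, threshold and variance trend were varied. The model was also fitted with the replicate number as a block, with Y-linked expression as a covariate, after dropping genes of the sex chromosomes and without each embryo in turn.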

Additional observations from a re-analysis of the deposited data

Results flagged for a closer look

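The mutant difference differed between the replicate sets for 182 genes at an unadjusted p under 0.01 and for 7 at an adjusted p under 0.05 (limma, interaction with the set, at least 2-fold), as described above. Among the 5 embryos of a genotype, a value stood apart from the others by Dixon's criterion in 5 cases among the named genes. Chance alone would give about 1 in 20 groups. With 53 named genes looked at in both genotypes, the number of cases was about what chance would give. *Cdhr1* was at 15.1 in wild-type replicate 6, below the other wild-type embryos at 24.9 to 26.1, so that the wild-type embryos of replicates 5 and 6 differed from each other for this gene. *Xist* was at 58036 and *Uty* at 0 in mutant replicate 2, unlike the other mutants. *Ddx3y* and *Eif2s3y* were at 0.955 each in wild-type replicate 4, which is 1 read each, and at 0 in the other wild-type embryos.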

How the results depend on the processing

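All selected genes that were tested kept the sign of the contrast under each alternative run, although the selection required a size that makes this likely. The number selected was 182, and 163 to 206 with edgeR, DESeq2, TMM factors, quantile normalization, other pseudocounts, no variance trend, the replicate block, without X and Y genes and with the Y-linked covariate, 248 without the filter and 132 at a mean of at least 50. The 7 genes at the adjusted p became 85 with DESeq2, 4 with the Y-linked covariate and 1 at an adjusted p under 0.01. Genes called in replicates 2 to 4 only (102) became 52 with the covariate and 66 at an adjusted p under 0.01. Those called in replicates 5 and 6 only (11) became 18 with DESeq2, 0 with the covariate in limma and 5 at the stricter p, and those with opposite directions (13) became 20 with DESeq2, 6 at a pseudocount of 10, 7 at a mean of at least 50, 2 with the covariate and 5 at the stricter p. All genes called in replicates 2 to 4 (424) became 246 with the covariate and 218 at the stricter p, and in replicates 5 and 6 (136) 225 with DESeq2, 10 with the covariate and 58 at the stricter p. Within replicates 5 and 6 the covariate and the genotype coincide, so that there the fit can separate them only through the slope set by the other embryos. Otherwise the cause was not tested.

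With 1 embryo left out, 138 to 227 genes were selected and 1 to 13 passed the adjusted p, with 1 without wild-type replicate 3, 5 or 6 or mutant replicate 5, 2 without mutant replicate 6, 4 without mutant replicate 2 or 4 and 13 without mutant replicate 3. The genes of replicates 2 to 4 only were 56 to 125 (66 without wild-type replicate 5 or 6, 56 without mutant replicate 5), those of replicates 5 and 6 only 2 to 15 (6 without wild-type replicate 2, 2 without wild-type replicate 5, 7 without mutant replicate 5) and those with opposite directions 5 to 26 (5 without wild-type replicate 3, 26 without mutant replicate 5). Genes called in replicates 2 to 4 were 286 to 435 and in replicates 5 and 6 41 to 150 (41 and 73 without wild-type replicate 5 or 6, 58 and 60 without mutant replicate 5 or 6). A lone embryo left in an arm is assumed to vary like the other groups. Of 45 named selected genes, 4 missed p under 0.01 with the covariate (*Shh*, *Stmn4*, *Cdx1* and *Elf5*).

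Embryos of the same number in both genotypes correlated at 0.253 to 0.459 after removal of the genotype means, but after removal of the means of each genotype in each set, the groups compared here, the correlations ran from −0.05 to 0.352, so the numbers were not taken to pair embryos. With the replicate block 206 genes were selected, 152 of them among the 182, and 2 passed the adjusted p. *Shh* and *Bcan* then missed p under 0.01.

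Among genes that were not selected, the sign of a contrast near 0 turned. The interaction of Rreb1 ran from −0.084 to 0.1755 with 1 embryo left out (−0.0145 and −0.03 without wild-type replicate 3 and 6, −0.084 and −0.04 without mutant replicate 4 and 6). With the covariate the interaction of Kdm5d was −0.27, that of Uty −0.23, that of Ddx3y −0.0352 and that of Xist 0.0618. With 1 embryo left out the interaction of Kdm5d ran from −0.0054, without mutant replicate 2, to 4.8059. Replicates 5 and 6 held 2 embryos per genotype.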

Other observations

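For 2 selected genes with low counts the embryos of a group were uneven. *Gm5702* had 0, 4.02 and 0 in wild-type and 18, 50.9 and 18.1 in mutant replicates 2 to 4, and 63.4 and 81 in wild-type and 38.1 and 0 in mutant replicates 5 and 6. *Gm6645*, on the X chromosome, had 15.4, 28.1 and 22 in wild-type and 5.3, 1.04 and 6.37 in mutant replicates 2 to 4, and 24 and 0.942 in wild-type and 29.7 and 50.1 in mutant replicates 5 and 6. Both were singled out after their values were seen.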
